A study of Mus musculus with 14 samples.

Results

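The genes described here are 10 members of the matrix remodelling system that fibroblasts commonly express without an added stimulus: the matrix metalloproteinases Mmp2, Mmp11, Mmp14, Mmp19 and Mmp23, the tissue inhibitors of metalloproteinases Timp1, Timp2, Timp3 and Timp4, and the membrane-anchored inhibitor Reck. They were chosen by gene symbol among the 43472 genes of each deposited table, and each symbol matched 1 row. Of the 10 members, 9 had a mean of at least 10 normalised counts in the replicated comparison at 5 h, and Timp4 did not.

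RNA was sequenced from primary fibroblasts of C57BL/6 mouse tails that were wounded by a scratch in culture. Untreated wounded cells were compared with wounded cells given autologous micrograft (AMG), that is disrupted mouse skin passed through a filter and added to the medium at 1:10, which the study describes as a soluble fraction free of cells. In replicate 1 there was 1 untreated and 1 AMG-treated library at each of 1, 5, 12 and 24 h. In replicates 2, 3 and 4 a library of each kind was taken at 5 h, which gives 3 against 3. All groups were scratched, so there was no unwounded control, and the labels name no transgene, age or further agent. They call the replicates biological but do not say what libraries with the same number share.

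Matrix metalloproteinases are zinc enzymes that cut collagens and other components of the extracellular matrix and release growth factors held in it. Most are made as inactive pro-enzymes, and TIMP proteins block the active enzymes by binding to their catalytic site. Mmp14 is a membrane enzyme that activates pro-Mmp2 at the cell surface with the help of Timp2. Fibroblasts are a main source of these proteins in skin and in healing wounds.

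Depth was between 12545537 and 34696529 gene-assigned reads per library. All 9 fibroblast markers, among them Col1a1, Dcn and Pdgfra, had a mean of at least 10, and at 5 h in replicates 2 to 4 their summed level was 447877 to 626065 normalised counts in untreated and 350882 to 453651 in treated libraries. The summed level of 5 keratinocyte markers was at most 181, and that of the 5 of 6 listed leukocyte markers found in the tables was 235 to 2163. Endothelial markers summed to 7.63 to 238, adipocyte markers to 259 to 2067 and skeletal muscle markers to 264 to 7289, the highest of these in an untreated library. Acta1 held nearly all of the muscle sum, while Ckm, Myh4 and Myog had at most 2.32 in any library. Fabp4 held nearly all of the adipocyte sum, while Adipoq and Plin1 had at most 3.48. The part of other cell types in the results was not tested. In 12 libraries, 83 ribosomal protein genes took 2.27% to 3.47% of the reads, whereas they took 7.0% in the untreated 5 h library of replicate 1 and 5.10% in its AMG-treated 1 h library. The replicate 1 ratios at 1 and 5 h use those libraries and are also given after a correction for transcript length. The part of library composition in them was not tested beyond this. In replicates 2, 3 and 4 the share was 2.39%, 2.82% and 2.27% in untreated and 3.40%, 3.15% and 3.47% in treated libraries. It was thus higher with AMG in each number, and its part in the 5 h changes was not tested beyond the length-corrected fits. Counts were divided by a size factor separately for replicate 1 and for replicates 2 to 4, so levels are compared only within each set. In bulk RNA, fewer cells of a type and less RNA per cell cannot be told apart.

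The sequences before the start sites of Timp1, Mmp11 and Reck are shown because these members had the largest differences between treated and untreated cells at 5 h. They were taken from RefSeq (GRCm38.p6), and capitals mark matches to 6 short motifs searched on both strands. The stretches lie at chrX:20869916-20870165 on the plus strand for Timp1, at chr10:75932503-75932752 on the minus strand for Mmp11 and at chr4:43875280-43875529 on the plus strand for Reck. Each of them ends at the base before the RefSeq start. The Mmp11 stretch lies inside the GENCODE span of that gene, since a further transcript starts upstream, but in no exon.
Timp1 promoter: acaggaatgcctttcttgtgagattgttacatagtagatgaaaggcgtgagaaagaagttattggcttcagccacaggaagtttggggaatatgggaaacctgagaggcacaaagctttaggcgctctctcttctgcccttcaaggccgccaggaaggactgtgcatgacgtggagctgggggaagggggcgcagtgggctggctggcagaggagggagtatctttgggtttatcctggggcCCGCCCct
Mmp11 promoter: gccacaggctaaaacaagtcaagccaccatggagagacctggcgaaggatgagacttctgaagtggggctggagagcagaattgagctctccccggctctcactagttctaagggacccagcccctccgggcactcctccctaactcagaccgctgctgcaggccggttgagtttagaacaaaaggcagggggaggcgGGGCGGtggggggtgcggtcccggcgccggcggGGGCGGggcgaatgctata
Reck promoter: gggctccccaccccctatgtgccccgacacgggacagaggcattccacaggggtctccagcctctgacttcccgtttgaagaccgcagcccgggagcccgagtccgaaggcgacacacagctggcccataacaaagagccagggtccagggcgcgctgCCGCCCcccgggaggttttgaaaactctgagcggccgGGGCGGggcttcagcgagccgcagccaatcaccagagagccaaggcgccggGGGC
Windows from 250 bases before to 50 bases after the start were given for 8 of the 10 members, and none was used for Mmp2 and Mmp19. The capitals in all of the stretches above are GC boxes (GGGCGG or its complement CCGCCC), a motif held by 35.7% of 32851 such windows of mouse genes. Mmp11 held 4 GC boxes in its window and Reck held 3, the last of which begins 4 bases before the start and is cut short in the line above. The AP-1 element TGAGTCA, found in 5.20% of all windows, was in the window of no member. The variant TGAGTAA, found in 2.68% of windows and searched after the Timp1 sequence had been read, occurred in Timp1 alone, 27 bases after the start in the 5′ untranslated part of the first exon (chrX:20870181-20870210, plus strand).
Timp1 site: cggtgggtggaTGAGTAAtgcgtccaggaa
The other motifs were an NF-kB type motif, TTCCNGGAA and TATAAA, held by 1.47%, 1.15% and 13.6% of all windows. Only Mmp23 among the members held one of them, a TTCCNGGAA match 4 bases before the start of its first window. A match to these letters is a description of the sequence and not a measured binding site.

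In untreated cells at 5 h the RNA levels of Timp1, Timp2 and Timp3 stood above those of all 5 enzymes. Expressed as normalised counts per kilobase of exon, Timp1, a secreted inhibitor of most soluble metalloproteinases, stood highest at 34995 ± 9465 (SD, n = 3, replicates 2 to 4). Timp2, which also serves as the adaptor for pro-Mmp2 activation, followed at 10763 ± 4318, and Timp3, the matrix-bound inhibitor that also acts on ADAM proteases, at 6036 ± 2846. Among the enzymes, the gelatinase Mmp2 stood at 2134 ± 335 per kilobase and its activator Mmp14 at 2080 ± 463. Mmp23, a small enzyme anchored by its amino end, was at 704 ± 256, Mmp19 at 269 ± 39.4 and Mmp11, also called stromelysin 3, at 174 ± 34.8. Reck, which restrains Mmp2, Mmp9 and Mmp14 at the cell surface, was at 143 ± 38.9. The neighbours Timp2 and Timp3, Mmp2 and Mmp14, and Mmp11 and Reck had overlapping values over the 3 libraries, while the other neighbours in this order did not overlap. The 4 untreated libraries of replicate 1, which are different times and not replicates of a condition, gave the same order of means for Timp1, Timp2, Timp3, Mmp2, Mmp14, Mmp23, Mmp19, Mmp11 and Reck.

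Timp4 was at the edge of detection. Its values in untreated replicates 2, 3 and 4 were 1.10, 1.39 and 0 normalised counts, and in treated replicates 2, 3 and 4 they were 1.27, 3.28 and 0. No library of replicates 2 to 4 had more than 4 reads, and a count of 0 allows up to 3 reads, so no difference was detectable at this depth. In replicate 1 the highest value was 20.9, from 12 reads in the treated 1 h library. Timp4 lies inside Syn2, which had at most 8.35 normalised counts, and overlaps Gm17482 on the other strand, as Timp2 and Reck overlap Cep295nl and Gm27265 on their own strand without shared exon bases.

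At 5 h, the question was whether AMG altered the expression of these enzymes and inhibitors. Across replicates 2 to 4, Timp1 was 2.40-fold higher and Mmp11 2.48-fold lower in treated cells by the ratio of means, and Reck, Mmp19 and Mmp2 were lower by smaller amounts. Mmp14, Mmp23, Timp2 and Timp3 had mean differences within 0.14 of 0 on the log2 scale. With limma and no pairing, 0 of the 9 members tested passed an adjusted p of 0.05, where 1.24% of all 13096 genes tested did. At an unadjusted p under 0.05 there were 3 members (Timp1, Mmp11 and Reck) and 3021 genes in all. On the recovered reads edgeR called 0 members and 1.03% of all genes, and DESeq2 called 2 members, Timp1 and Mmp11, and 11.2% of all genes.

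Treated and untreated libraries of the same number deviated together from their group means, so the number was also used as a block. The labels do not say what such libraries share. With the replicate number as a block, 5 of the 9 members passed in limma, where 37.2% of all genes tested did. Timp1 rose, in a background of 17.9% of genes that passed as higher, and Mmp11, Reck, Mmp19 and Mmp2 fell, in a background of 19.3% that passed as lower. The same 5 members passed after the length correction with the block, where 34.2% of genes passed, 18.1% as higher and 16.1% as lower. The 9 members had a median log2 change of -0.14, with 2 higher and 7 lower, beside a median of -0.018 over all genes tested. Treated and untreated values did not overlap for 3 of 9 members, Timp1 (higher), Mmp11 and Mmp19 (lower), against 28.7% of all genes, 15.1% higher and 13.6% lower. Timp1 was higher in all 3 replicate numbers, and Mmp11, Reck, Mmp19, Mmp2 and Timp2 were lower in all 3. Such a shared direction was found for 66.4% of all genes, 31.9% higher and 34.5% lower, so that 6 of 9 members is close to the background.

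**Figure D1:**
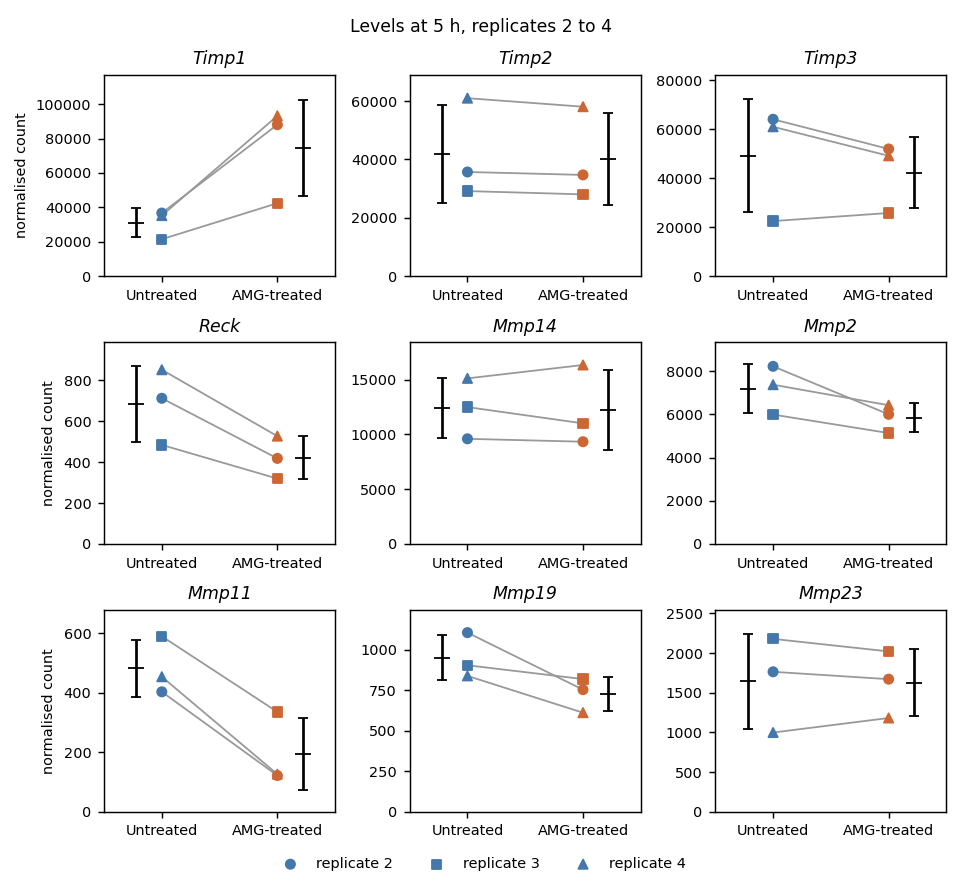
Normalised counts (vertical axes, from 0) of the 9 members tested in untreated and AMG-treated fibroblasts at 5 h, with lines joining libraries of the same replicate number and black bars giving mean ± SD of 3 libraries. Timp1 was higher and Mmp11, Reck, Mmp19, Mmp2 and Timp2 were lower in treated cells of all 3 replicate numbers, and replicate 3 stood apart from the other two in Timp1, Timp3 and Mmp11.

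Timp1 lies at chrX:20870166-20874735 on the plus strand (GENCODE, mm10), inside the span of Syn1 on the other strand, with which it shares 0 exon bases. Untreated replicates 2, 3 and 4 had 36646, 21408 and 35173 normalised counts, and the treated libraries had 88060, 42371 and 93194. The lowest treated value exceeded the highest untreated value, and replicate 3 was lowest in each group. The mean went from 31076 ± 8405 to 74542 ± 27978 (SD, n = 3), a log2 change of 1.22 (limma, SE 0.37, adjusted p = 0.128; with the replicate block SE 0.12, adjusted p = 0.000146). Its change ranked at the 96.7th percentile of all genes tested. After the length correction the change was 0.81, with an adjusted p of 0.145 without the block and 0.000236 with it; Timp1 has the shortest exon length of the members, 888 bases. Without treated replicate 3 the unpaired change was 1.58 (limma, adjusted p = 0.0216), with 2199 of all genes passing, while without any other single library it was 0.97 to 1.36 with adjusted p from 0.245 to 0.360. Replicate 1 went the other way at 5 h, with 61225 normalised counts untreated and 46127 treated, a log2 ratio of -0.41 (95% interval -0.43 to -0.39, counting error only). The untreated library of that pair is the one with the highest ribosomal protein share, and after the length correction the ratio was 0.52. With all 4 replicates in a blocked edgeR fit the Timp1 change was 0.84 with an adjusted p of 0.205.

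Timp2 and Timp3 did not pass in either fit at 5 h. Timp2 (chr11:118301069-118355740, minus strand) had 35681, 29132 and 60986 normalised counts in untreated replicates 2, 3 and 4, and 34673, 28005 and 58064 in the treated libraries. The spread between replicate numbers was far wider than the difference within a number, and the log2 change was -0.06 (SE 0.37, adjusted p = 0.945; with the block SE 0.10, adjusted p = 0.689, limma). Timp3 (chr10:86300372-86349506, plus strand) had 64043, 22444 and 60973 untreated and 51909, 25754 and 49105 treated. Replicate 3 was far below the others in untreated cells and went up where the others went down, and the log2 change was -0.14 (SE 0.47, adjusted p = 0.886; with the block SE 0.13, adjusted p = 0.420, limma). In the blocked limma fits added after the data were seen, leaving out replicate 3 gave a change of -0.31 (adjusted p = 0.0170). Leaving out replicate 2 or 4 gave -0.06 and -0.05 (adjusted p = 0.843 and 0.883). The call thus depended on dropping the replicate that went the other way. Timp3 lies inside Syn3 on the other strand and shares 1733 exon bases with it. Syn3 had 3.60 to 309.5 normalised counts over all libraries, and since the strand setting of the counting was not given, reads of the shared bases cannot be assigned to one gene with certainty.

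Reck (chr4:43875530-43944806, plus strand) had 713, 485 and 852 normalised counts in untreated replicates 2, 3 and 4 and 419, 320 and 527 in treated ones. The groups overlapped, but the treated library was lower within each replicate number. The mean went from 683 ± 186 to 422 ± 104 (SD, n = 3), a log2 change of -0.69 (limma, SE 0.27, adjusted p = 0.194; with the block SE 0.11, adjusted p = 0.00220). It passed the blocked fit with any of the 3 replicate numbers left out, with adjusted p from 3.25e-05 to 0.0357, but with all 4 replicates in the blocked edgeR fit its change was -0.41 and the call was lost (adjusted p = 0.391). Replicate 1 was the exception, with 223 normalised counts untreated and 303 treated at 5 h, a log2 ratio of 0.44 (95% counting interval 0.16 to 0.74). After the length correction this ratio was 0.36.

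Mmp11, an enzyme that cuts few classical matrix proteins and is best known from stromal cells of tumours and healing tissue, had the largest decrease of the members. The gene lies at chr10:75923222-75936496 on the minus strand and shares 155 exon bases with Chchd10, which had at most 41.0 normalised counts in any library. Untreated replicates 2, 3 and 4 had 404, 590 and 454 normalised counts of Mmp11, and treated ones had 122, 336 and 127. No treated value reached an untreated one, and replicate 3 was highest in both groups. The mean went from 483 ± 96.5 to 195 ± 122 (SD, n = 3), a log2 change of -1.45 (limma, SE 0.41, adjusted p = 0.116; with the block SE 0.20, adjusted p = 0.000972), at the 1.70th percentile of all genes tested. Mmp11 also passed with DESeq2 (adjusted p = 0.0340) and in the blocked edgeR fit of all 4 replicates (log2 change -1.34, adjusted p = 0.0260), in which 3.78% of all genes passed. In replicate 1 it was lower as well, 707 against 1505 normalised counts, a log2 ratio of -1.09 (95% counting interval -1.22 to -0.96), or -0.80 after the length correction, so that all 4 replicates had the same direction at 5 h.

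Mmp19, a soluble enzyme of basement membrane and other matrix proteins (chr10:128790910-128800824, plus strand), was lower by a smaller amount. It had 1107, 905 and 839 normalised counts in untreated replicates 2, 3 and 4 and 754, 820 and 612 in treated ones. The highest treated value was just below the lowest untreated value. The log2 change was -0.38, with an adjusted p of 0.233 in limma (SE 0.17) and 0.0268 with the block (SE 0.11). Mmp19 shares 789 exon bases with Tmem198b on the other strand, which had 874 to 1434 normalised counts, a level close to its own, and 212 with the antisense gene Gm47093, so its value is uncertain in the same way as that of Timp3.

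The pair of enzymes that act together at the cell surface behaved differently in the tests. Mmp2 (chr8:92827291-92853420, plus strand) had 8224, 5989 and 7372 normalised counts in untreated replicates 2, 3 and 4 and 6000, 5134 and 6422 in treated ones. The groups overlapped, and within each replicate number the treated value was lower. Its log2 change was -0.29, with an adjusted p of 0.318 in limma (SE 0.16) and 0.0332 with the block (SE 0.092). Mmp14 (chr14:54431612-54445364, plus strand) had 9595, 12490 and 15112 untreated and 9330, 11007 and 16333 treated. It was higher with AMG in replicate 4 and lower in replicates 2 and 3, and its log2 change was -0.04 (SE 0.26, adjusted p = 0.948; with the block SE 0.095, adjusted p = 0.787, limma). The difference between the changes of Mmp2 and Mmp14 was not tested. Mmp2 and Mmp19 each lost the call in the blocked fit when replicate 2 was left out (adjusted p = 0.279 and 0.227) or replicate 4 was left out (0.110 and 0.143). Both also lost it in the blocked edgeR fit of all 4 replicates, with changes of -0.12 and -0.30 and adjusted p of 0.761 and 0.315. Mmp23 (chr4:155650655-155653384, minus strand) had 1763, 2178 and 998 normalised counts untreated and 1671, 2020 and 1181 treated, a log2 change of 0.02 (SE 0.32, adjusted p = 0.980; with the block SE 0.10, adjusted p = 0.903, limma).

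**Figure D2:**
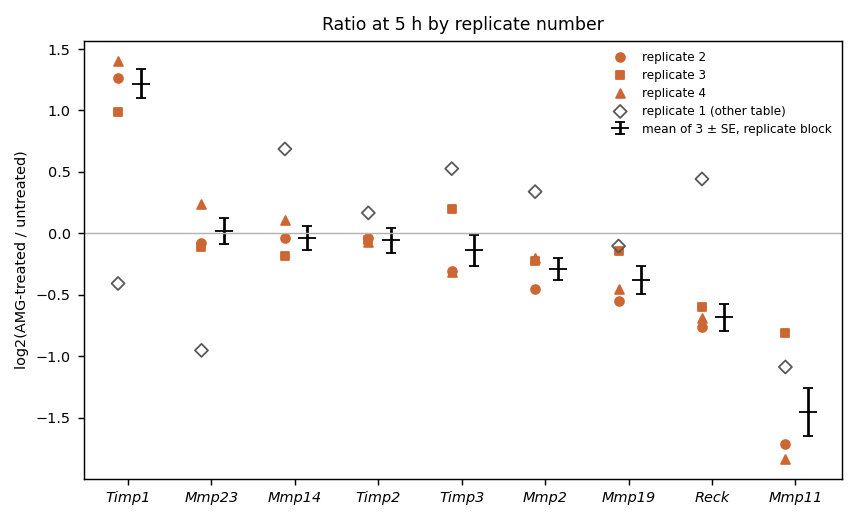
Log2 ratio of AMG-treated to untreated normalised counts (vertical axis) of each member at 5 h, with filled points for replicates 2 to 4, open diamonds for replicate 1 and black bars for the mean of replicates 2 to 4 ± SE from the blocked limma fit. The ratios of replicates 2 to 4 lie close together for Timp2 and Reck, replicate 1 lies outside their range for 8 of 9 members, all but Mmp11 (80.7% of all genes), and for Mmp11 all 4 ratios are between -1.84 and -0.81.

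The time course of replicate 1 asked when the treatment altered these transcripts, with 1 library per group and time and therefore no replicate check. Timp3 had the largest differences. Untreated cells had 95530, 55757, 34862 and 50031 normalised counts at 1, 5, 12 and 24 h, and treated cells had 97330, 80310, 7097 and 4876. The treated library was at or above the untreated one at 1 and 5 h and far below it at 12 and 24 h. In order of time the log2 ratios were 0.03, 0.53, -2.30 (95% counting interval -2.33 to -2.26) and -3.36 (-3.40 to -3.32). The treated level was 4.91-fold lower at 12 h and 10.3-fold lower at 24 h. These ratios lay at the 0.830th and the 0.482nd percentile of the 13498 genes whose mean reached 10 in this set, and the length correction gave -2.37 and -3.27. At 1 and 5 h, where a library of high ribosomal protein share was involved, the length-corrected ratios were 0.35 and 0.17. Over time, treated cells went down 20-fold from 1 to 24 h and untreated cells 1.91-fold.

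Past 2-fold, only 1 of the 9 members was found at each time: Timp1 higher at 1 h, Mmp11 lower at 5 h, and Timp3 lower at 12 and 24 h. Of all 13498 genes, 22% were past 2-fold at 1 h (11.3% higher, 10.7% lower) and 25.9% at 5 h (13.3% higher, 12.6% lower). The later times had fewer, with 12.8% at 12 h (5.93% higher, 6.9% lower) and 14.1% at 24 h (6.05% higher, 8.05% lower). The members' median log2 ratios were -0.29, 0.17, -0.50 and -0.07 at the 4 times, beside medians of -0.064, -0.0050, -0.0099 and 0.017 over all genes.

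Timp1 had its highest values at the earliest treated time and at 5 h in untreated cells. Untreated cells had 27206, 61225, 22625 and 15196 normalised counts at 1, 5, 12 and 24 h, and treated cells had 66515, 46127, 26702 and 20063. Both of the highest values came from the 2 libraries with the high ribosomal protein share. The log2 ratios were 1.29, -0.41, 0.24 and 0.40, and 0.26, 0.52, 0.40 and 0.08 after the length correction, which turned the ratio at 5 h and took the ratio at 1 h below 2-fold. Timp2 stayed within 36085 to 51967 normalised counts in all 8 libraries, the narrowest range of the inhibitors, and its length-corrected ratios at 1 and 5 h were -0.17 and 0.22. Reck was lower with treatment at 1, 12 and 24 h, with log2 ratios of -0.67 (-0.54 length-corrected), -0.65 and -0.32, and had its lowest value, 223, in the untreated 5 h library.

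The enzymes differed in their course. Untreated cells had 1428, 1505, 998 and 920 normalised counts of Mmp11 at 1, 5, 12 and 24 h, and treated cells had 913, 707, 707 and 1029. The log2 ratios of -0.65, -1.09, -0.50 and 0.16 show a lower treated level up to 12 h and a slightly higher one at 24 h. The length-corrected ratios at 1, 5 and 24 h were -0.88, -0.80 and 0.07. Mmp23 was above the untreated library at 1 h, with a log2 ratio of 0.54, and below it at 5, 12 and 24 h, with ratios of -0.95, -0.89 and -0.71. The length correction brought the ratio at 1 h to 0.18 and that at 5 h to -0.54. Mmp19 was lower in treated cells at every time, with ratios from -0.55 at 12 h to -0.10 at 5 h, with -0.35 at 1 h after the length correction, though at 5 h its counting interval reached from -0.23 to 0.023 and the length correction gave 0.013. Mmp2 had ratios of -0.51, 0.34, -0.13 and -0.07, and Mmp14 had -0.40, 0.69, 0.17 and 0.19, so that both were lower at 1 h and higher at 5 h in treated cells of this replicate. Length-corrected, they were -0.60 and 0.49 for Mmp2 and -0.17 and 0.48 for Mmp14 at these times. Set against the range of the 4 ratios seen at 5 h, which is the only replicate spread at hand, 5 of 9 members lay outside it at 1 h, 3 at 12 h and 3 at 24 h. Of the 12844 genes whose mean reached 10 in both sets, 65.3%, 31.2% and 39.8% lay outside it at these times, so that the members' counts were close to the background or below it. Timp3 and Mmp11 were outside it at 12 and at 24 h, Mmp19 at 12 h by a margin below rounding, and Timp2 at 24 h.

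**Figure D3:**
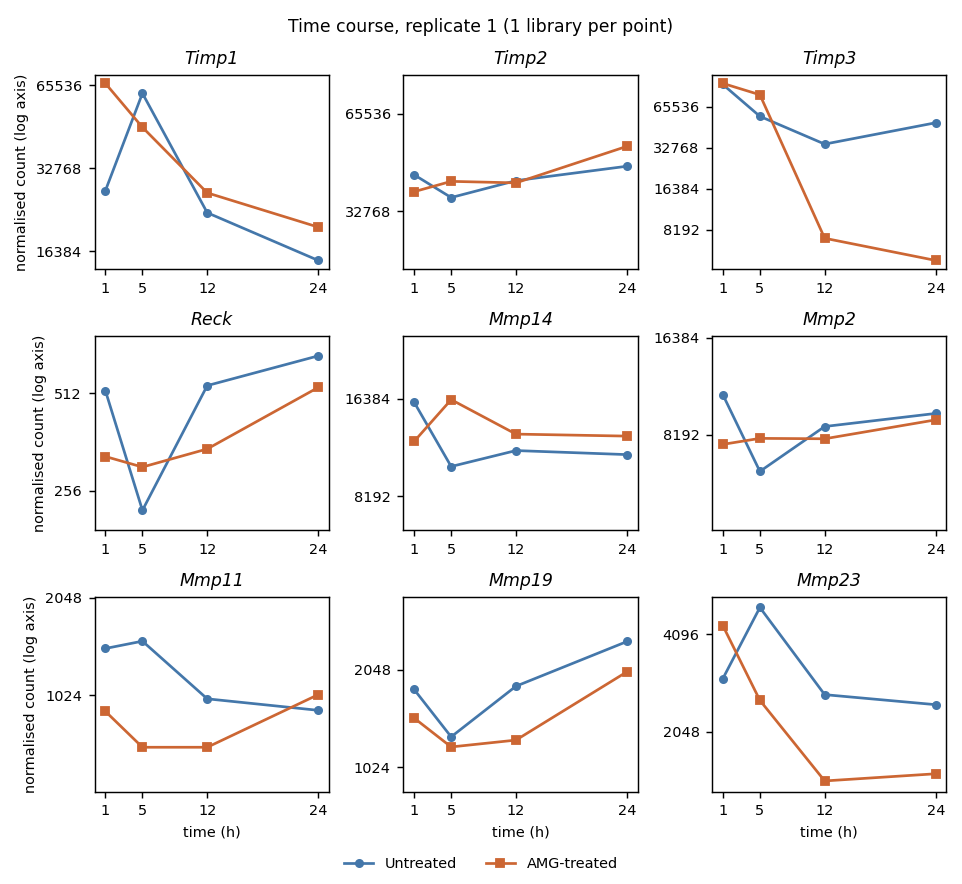
Normalised counts (vertical log axes) of the 9 members over time after treatment (horizontal axes, h) in replicate 1, with 1 untreated and 1 AMG-treated library per time. The treated Timp3 line drops from 80310 at 5 h to 7097 at 12 h while the lowest untreated value is 34862, and the Timp2, Mmp2 and Mmp14 lines of both groups stay within 2-fold of each other.

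Because TIMP proteins differ in their targets, the make-up of the TIMP transcripts was also compared, per kilobase of exon and summed over Timp1 to Timp4. Timp1 made up 70.8%, 70.2% and 63.1% of this sum in untreated replicates 2, 3 and 4 at 5 h and 86.7%, 82.2% and 83.4% in the treated libraries. The treated shares were all above the untreated ones. The ratio of summed TIMP to the summed 5 enzymes was 11.1, 6.51 and 11.3 untreated and 26.5, 12.7 and 23.4 treated, so that it was higher with AMG in each of the 3 replicate numbers. These shares and ratios rest mainly on Timp1 and had no lowess length correction. The ratio covers the 5 member enzymes alone and is no balance of all metalloproteinases. Of 12 other metalloproteinases tested, 8 had changes above 0 and 4 below. Among them the mean normalised counts of Mmp3 went from 1297 untreated to 28192 treated at 5 h. Those of Mmp13 went from 3978 to 18974 and those of Mmp10 from 443 to 9255. The treated library of each number also had the higher ribosomal protein share, and the part of this was not tested. Within replicate 1 this ratio was 6.48, 12.9, 6.19 and 5.14 in untreated cells at 1, 5, 12 and 24 h and 14.0, 10.6, 7.20 and 5.70 in treated cells. The 12.9 and 14.0 are those of the pair of libraries with the high ribosomal protein share, in which Timp1 made up 81.1% and 77.6% of the TIMP sum and its ratio to the other group moved most with the length correction. The share of Timp3 in replicate 1 was 22.0%, 8.05%, 10.6% and 17.6% in untreated cells and 12.4%, 13.7%, 2.11% and 1.64% in treated cells. At 24 h the TIMP sums of both groups were close, 34831 untreated and 36531 treated per kilobase, with little of the treated sum from Timp3.

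**Figure D4:**
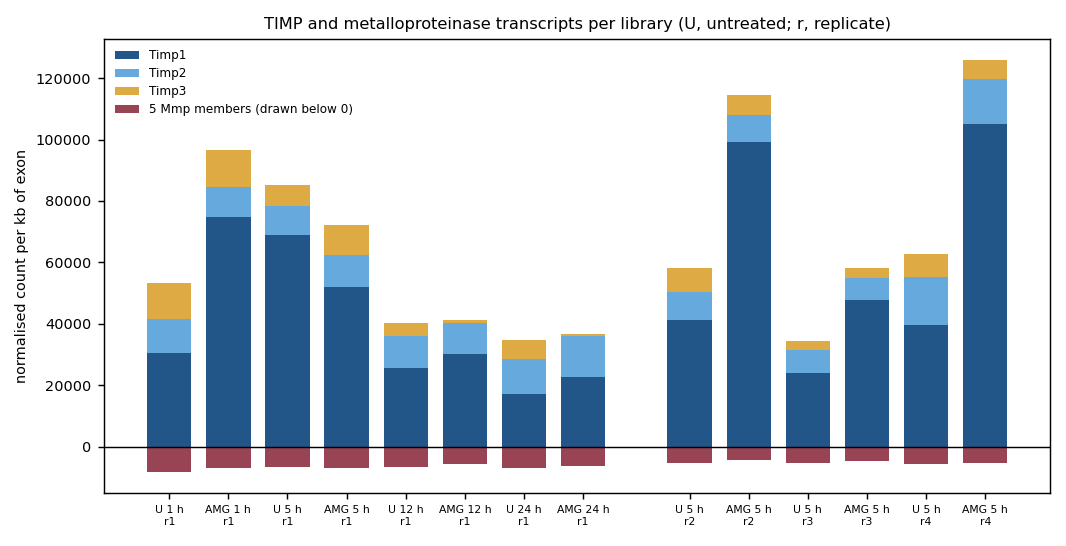
Normalised counts per kilobase of exon (vertical axis) in each library, stacked for Timp1, Timp2 and Timp3 above 0 and summed for the 5 Mmp members below 0, with replicate 1 on the left and replicates 2 to 4, scaled separately, on the right. Timp1 is the largest TIMP block in every library, and the Timp3 block is 2.11% and 1.64% of the TIMP sum in the treated 12 and 24 h libraries.

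Although these genes were grouped as constitutively expressed, some members varied much more than others. Over the 14 libraries, centred within each set, the widest log2 ranges were those of Timp3 (4.32), Mmp11 (2.26), Timp1 (2.19) and Mmp23 (1.78), and the narrowest were those of Mmp2 (0.79) and Mmp14 (0.81). Reck had a range of 1.58, Timp2 of 1.12 and Mmp19 of 1.08. Among 12844 genes, those most like Timp3 over these libraries were Prune2, Myl9 and Tgfb2, with r of 0.96, 0.95 and 0.94, or 0.88, 0.82 and 0.82 without the treated 12 and 24 h libraries. Mmp11 was most like Eef2k, Lancl2 and Fam171b (r of 0.96, 0.92 and 0.91, or 0.91, 0.85 and 0.77 without its 2 farthest libraries). Timp1 was most like Cfdp1, Trmt61b and Nifk (r of 0.97 each, or 0.97, 0.96 and 0.96). Mmp23 was most like Mfap5, Tes and Cxx1c (r of 0.97, 0.94 and 0.94, or 0.95, 0.93 and 0.90). These are descriptions over 14 libraries that share depth, composition and treatment. Between members, Mmp2 and Reck had the highest r, 0.89, and Timp1 and Mmp19 the lowest, -0.75.

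The surrounding genes were counted from lists of textbook roles. Of 18 other matrix metalloproteinases, 12 were tested at 5 h and had a median log2 change of 2.59, far from that of the 9 members. In limma 5 passed, all higher: the stromelysins Mmp3 (4.49) and Mmp10 (4.27), the collagenases Mmp13 (2.26) and Mmp1b (4.32), and the gelatinase Mmp9 (5.47). Of all genes tested 1.24% passed this fit. On the recovered reads edgeR called 4 of the 12 and DESeq2 7, beside 1.03% and 11.2% of all genes. With the block 8 were higher, adding Mmp12 (2.92), Mmp24 (1.63) and Mmp1a, whose untreated level of 0.367 was too low for a fold to be read. With it 2 were lower, Mmp16 (-0.76) and Mmp17 (-0.47). In replicate 1 at 5 h, 10 of the 12 were higher, also after the length correction. Mmp16 hardly differed there (-0.02), and Mmp17 went the other way (0.54). In the blocked fit 17.9% of all genes passed as higher and 19.3% as lower. The untreated means of Mmp1b (3.83) and Mmp12 (6.28 normalised counts) were also low, so the size of their changes is uncertain. The difference between these enzymes and the members was not tested.

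Further lists held the genes that process, bind or serve as substrates of the members. Over all genes tested, 37.2% passed with the block, 17.9% as higher and 19.3% as lower. Without it 1.24% passed in limma, 1.03% in edgeR and 11.2% in DESeq2. An unadjusted p under 0.05 in limma without the block was found for 3021 of the 13096 genes. All 4 pro-enzyme convertases had negative changes in replicates 2 to 4 with a median of -0.31, and with the block Pcsk6 alone passed (-0.52, adjusted p = 0.00862), while Furin, the convertase that activates Mmp11 and Mmp14, was at -0.10 (adjusted p = 0.453 with the block, limma). Without the block 0 convertases passed in limma, edgeR or DESeq2, with 0 at an unadjusted p under 0.05. In replicate 1 at 5 h all 4 were higher with AMG, from 0.24 for Pcsk5 to 0.98 for Pcsk7, or 3 of 4 after the length correction. Of 9 cell surface partners, 5 had changes above and 4 below 0, and 6 passed with the block. Without the block 0 passed in limma or edgeR and 2 in DESeq2, with 3 at an unadjusted p under 0.05. Itgb3 (1.95), Cd44 (0.59) and Cd63 (0.39), the last a surface partner of Timp1, were higher, and Thbs1 (-1.27), Thbs2 (-0.61) and Cav1 (-0.40) were lower. In replicate 1 at 5 h, Itgb3 (2.86) and Cd44 (0.81) were higher too, whereas Cd63 (-0.93) and Thbs2 (0.66) went the other way. Thbs1 (-0.02) and Cav1 (0.0047) hardly differed there. Of the 9 partners, 6 were higher in that replicate, or 5 after the length correction. Of 6 further metalloproteinase inhibitors 2 were tested, Spock2 and Tfpi2, and 0 passed in either fit of limma, in edgeR or in DESeq2, with 0 at an unadjusted p under 0.05. All 8 matrix substrates had negative changes in replicates 2 to 4 with a median of -0.51, and with the block 6 of them passed, Col1a1 (-0.63), Col1a2 (-0.57), Col3a1 (-0.54), Col4a1 (-0.51), Col4a2 (-0.49) and Fn1 (-0.51). Without the block 0 passed in limma or edgeR and 1 in DESeq2, with 1 at an unadjusted p under 0.05. In replicate 1 at 5 h, 7 of the 8 went the other way, from 0.28 for Col3a1 to 1.39 for Lamc1, or 5 of 8 after the length correction.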

How the data were processed

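RNA was measured in 14 libraries of scratch-wounded mouse tail fibroblasts, grouped by treatment, time and replicate number from the sample labels. Per the labels and the methods of the study, stranded poly(A) libraries were sequenced, checked with FastQC 0.11.5, aligned to mm10 with TopHat2 2.0.13, handled with SAMtools 0.1.19.24 and counted per gene with HTSeq 0.5.3p3. Those methods describe a further series of libraries. Their steps were taken to apply here because the labels name the same kit and tools. Each deposited number is a signal on a normalised count scale, which the authors obtained by dividing the reads of a gene by a DESeq size factor, in separate tables for replicate 1 and for replicates 2 to 4. The annotation release and strand setting of the counting are not given in the sources used here. In every library 100% of values were whole multiples of the value of 1 read (tolerance 0.1), which gave the read counts.

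Because the values are normalised, the main test was limma 3.58.1 in R 4.3.3 (lmFit, eBayes with trend) on log2(value + 1), 3 against 3 libraries at 5 h, for 13096 genes with a mean of at least 10, with Benjamini-Hochberg adjustment over all of them and a threshold of 0.05. Changes on this scale are understated for low genes, and p-values measure the spread between these libraries. Same-numbered treated and untreated libraries deviated together from their group means (r = 0.65, 0.76 and 0.70 for replicates 2, 3 and 4). A fit with the number as a block is therefore given where it changes a call. Different numbers had r of -0.59 to 0.12. Centring on the mean of 3 libraries itself lowers these where same-numbered libraries deviate together, so they are no separate evidence of pairing. Other settings tried were a pseudocount of 0.1 or 10, a filter at 0 or at a mean of 50, no trend, rescaling to the upper quartile, DESeq2 1.42.0 and edgeR 4.0.16 on whole reads, a lowess correction of each library for exon length, and leaving out libraries. The blocked fit with 1 replicate number left out was added after the data were seen. The fits were also run on simulated counts with known changes and without a length or composition bias. This does not show how they behave where such a bias exists.

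Replicate 1 has 1 library per group and time and no test, and its intervals are 95% exact binomial intervals that cover counting error only. Exon lengths and coordinates come from GENCODE M21 on mm10. The members and all gene lists were chosen with earlier results of these data known. Named were every member, listed pathway genes that passed either fit (other listed genes were named after their values were seen), genes overlapping a member, and the 3 genes most like each of the 4 members with the widest range.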

Additional observations from a re-analysis of the deposited data

Results flagged for a closer look

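In the treated to untreated ratios of the 4 replicates at 5 h, a value that stood apart from the rest by Dixon's criterion was found for 2 of the 9 members. Chance gives about 1 in 20, but in these data 10.6% of 12844 genes had such a value, and replicate 1 lay outside the range of the others for 80.7% of genes. For Timp2 the ratio of gap to range was 0.876, with replicate 1 at a log2 ratio of 0.17 and replicates 2, 3 and 4 at -0.04, -0.06 and -0.07. For Reck it was 0.861, with replicate 1 at 0.44 and the others at -0.77, -0.60 and -0.69. Replicate 1 was scaled apart from the others, and its untreated 5 h library had the highest ribosomal protein share, 7.0%; the part of this in both results was not tested.

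The Mmp11 ratio was slightly above 0 at 24 h. Its log2 ratio was 0.16 at 24 h in the only pair of libraries at that time, while it was negative in all 4 replicates at 5 h, from -1.84 to -0.81. The difference between the times was not tested.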

How the results depend on the processing

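Among all genes tested at 5 h, 162 passed; the count was 4872 with the replicate block, 80 without the trend, 1434 with DESeq2, 4852 with edgeR and the block, 495 with edgeR on 4 replicates with the block, 4271 with the length correction and the block, and 1 to 2199 with 1 library left out (1 without treated replicate 2, 2199 without treated replicate 3). Members past the threshold went from 0 to 5, 2, 5, 1 and 5 under the replicate block, DESeq2, blocked edgeR, edgeR on 4 replicates and the blocked length correction, and to 0 to 2 with 1 library left out (2 without treated replicate 3). The listed pathway genes went from 5 to 23, 10, 23, 8 and 21 in the same order, to 3 without the trend and to 0 to 8 with 1 library left out. In replicate 1, members past 2-fold went from 1 to 0 with the length correction (both at 1 h and 5 h), and to 2 at 5 h with upper quartile rescaling.

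Timp1, Mmp11, Reck, Mmp19 and Mmp2 kept their direction under all 22 alternatives, and their adjusted p ranged from 1.06e-08 to 0.360, 8.17e-08 to 0.341, 3.25e-05 to 0.427, 0.000513 to 0.528 and 0.00368 to 0.761. Most alternatives refit the same libraries of replicates 2 to 4, so a kept direction is no independent check. In replicate 1 at 5 h, Timp1 (-0.41), Reck (0.44) and Mmp2 (0.34) went the other way. Mmp11 (-1.09) and Mmp19 (-0.10) were lower there too. The direction of the other 4 members tested was not stable. Mmp14 was 0.15 with edgeR on 4 replicates, 0.067 with the length correction with or without the block, and -0.27 to 0.14 with libraries left out. Mmp23 was -0.0084 with edgeR, -0.016 with DESeq2, -0.21 with edgeR on 4 replicates, -0.13 with the length correction with or without the block, and -0.31 to 0.26 with libraries left out. Timp2 was 0.0092 with edgeR on 4 replicates and -0.36 to 0.25 with libraries left out. Timp3 was 0.037 with edgeR on 4 replicates, 0.042 with the length correction with or without the block, and -0.63 to 0.18 with libraries left out. The cause of these changes was not tested. Depth limits Timp4 alone among the members.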
